A study of Oryctolagus cuniculus with 12 samples.

Results

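HIF1A, EPO, KDR and EDN2 are 4 genes of oxygen sensing and vascular signalling, followed here in the ventricles of fetal rabbits. They were chosen by gene symbol: every probe whose current symbol is 1 of these 4 was used, which gave 7 of the 43603 probes in the table and 4 of its 591 named genes. HIF1A had 3 probes, EPO had 2, and KDR and EDN2 had 1 each. The EDN2 probe is listed under the older name PPET2 and was matched by its transcript accession, and the KDR probe was matched by symbol. The samples are heart ventricles of 6 fetuses with intrauterine growth restriction (IUGR, growth below that expected for age) and 6 controls, joined in 6 pairs of 1 IUGR and 1 control sample. The titles call the IUGR samples treatment. The labels give no procedure, strain, sex or fetal age, nor what joins the samples of a pair, so other effects of the procedure and growth restriction cannot be told apart. Nothing in the labels says that the replicates came from different litters, so each p-value speaks only of the spread among these 6 pairs. The series' title names energy metabolism in a growth-restricted rabbit heart, and the question here was whether signals of low oxygen and of vessel growth differed between the groups.

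HIF1A encodes the alpha subunit of hypoxia-inducible factor 1, which pairs with ARNT to switch on genes when oxygen is scarce. Its activity is set mainly by the stability of the protein: with oxygen present, prolyl hydroxylases mark it and VHL sends it for degradation, so the mRNA measured here is not a direct reading of HIF activity. EPO encodes erythropoietin, the hormone that drives red cell production and a classic HIF target made chiefly in fetal liver and later in kidney. KDR encodes VEGF receptor 2, the main receptor through which vascular endothelial growth factor acts on endothelial cells. EDN2 encodes endothelin 2, a vasoconstrictor peptide that acts on the receptors EDNRA and EDNRB, as does endothelin 1 (EDN1). In whole ventricle, fewer cells of a type and less RNA per cell cannot be told apart.

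Values are log2 probe signals, 1 array per sample. Any 2 arrays correlated at 0.957 to 0.978 across probes. Arrays of pairs 1 and 2, of pairs 3 and 4 and of pairs 5 and 6 resembled each other: after removal of the group means, arrays of different groups and pairs correlated at 0.03 to 0.12 within these sets and at -0.16 to 0.02 across them. The labels do not say what such a set shares. The sets were chosen after the data were seen, so these correlations only describe them. Differences are also given within the sets. Of the cardiomyocyte markers, MYH6 lay at 14.98 ± 0.21 in IUGR and 14.77 ± 0.24 in control (SD, n = 6 each) and RYR2 at 12.91 ± 0.17 and 13.04 ± 0.09, both high in the table, so heart muscle RNA was present in both groups.

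The 7 probes fell into a measured and a dim part. The HIF1A probes had mean levels of 8.66, 7.44 and 6.76, at percentiles 79.6, 70.1 and 64.7 of all probe means, and are called probes 1, 2 and 3 in that order (A_04_P001197, A_04_P001198 and A_04_P001196). The KDR probe (A_04_P102822) lay at 5.95, percentile 58.9. The EDN2 probe (A_04_P002806) lay at 3.33, percentile 38.0. The EPO probes lay at 2.77 (probe 1, A_04_P101897) and 2.59 (probe 2, A_04_P001931), percentiles 20.03 and 11.1. Of all probes, 40.5% had a mean under 3.5, so EDN2 and EPO lay in the crowded lower end, where a small change in signal moves a probe past many others. Detection flags were not used here, so a dim value cannot be called absent or present. The median standard error of a difference was 0.256 log2 for probes below the median level and 0.137 for those above it.

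**Figure D1:**
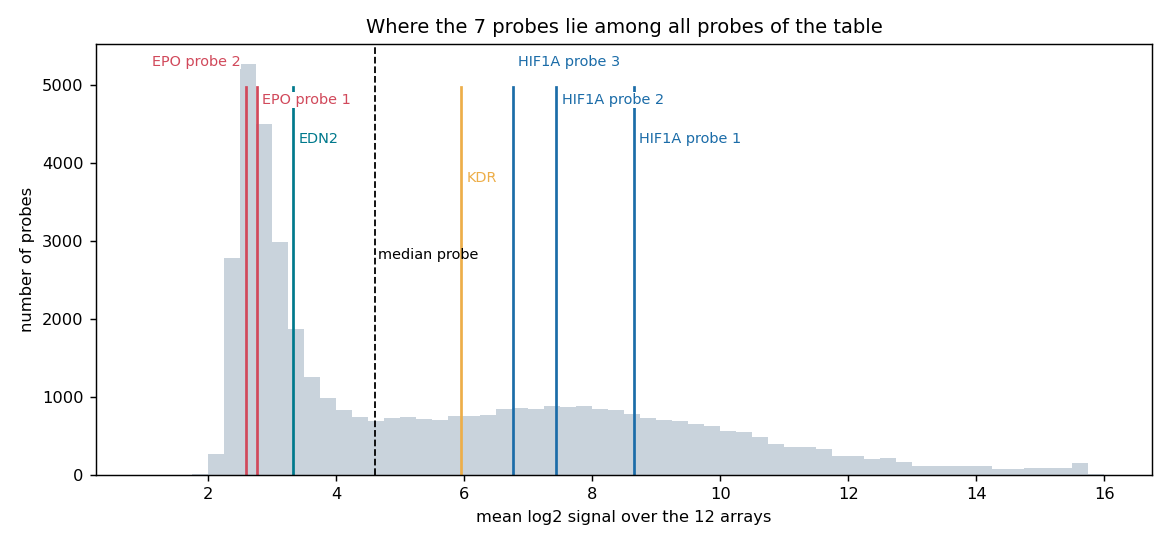
Histogram of the mean log2 signal over 12 arrays for all 43603 probes (bars, number of probes per 0.25 log2), with a vertical line at the mean of each of the 7 probes and a dashed line at the median probe (4.61). The EPO and EDN2 lines stand in or beside the tall peak of dim probes, and the KDR and HIF1A lines stand to the right of the median.

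No member passed the test. In the limma fit over all probes, 0 of the 7 probes had an adjusted p under 0.05, against 0% (0 of 43603) of all probes, and the ordinary paired test also called 0 probes. At an unadjusted p under 0.05 there were 3 of 7 member probes (EPO probe 1, KDR and EDN2), against 3.58% (1562) of all probes in limma. By the brightest probe per gene it was 3 of 4 genes, against 4.06% of the 591 named genes. The members were chosen with earlier results of these data known, so nothing is read from these shares. KDR and EDN2 were higher in IUGR in 6 of 6 pairs, as were 1.31% of all probes, and no member was lower in all 6, as 0.943% of all probes were. The groups overlapped for all 7 member probes, while 0.0505% of all probes had groups that did not.

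HIF1A mRNA was somewhat lower in IUGR by all 3 of its probes, within the spread between pairs. On probe 1 the IUGR samples ran from 8.34 to 8.90 with a median of 8.47, and the controls from 8.28 to 9.63 with a median of 8.66. The IUGR values lay inside the range of the controls, whose highest sample, that of pair 2, stood clear of the rest. The difference was -0.22 ± 0.37 (SD, n = 6 pairs), a level 1.17-fold higher in control, with a 95% interval of -0.59 to 0.14 (limma p = 0.195, adjusted p = 0.982, exact permutation p = 0.219 over the 64 sign changes of the pairs).

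On HIF1A probe 2 the IUGR samples ran from 7.07 to 7.50 with a median of 7.17, and the controls from 6.99 to 8.50 with a median of 7.40. The controls of pairs 2 and 4 reached 8.45 and 8.50, while the other 4 controls lay at 6.99 to 7.47, the lowest of them, that of pair 6, below every IUGR sample. The difference of -0.42 ± 0.70 (exact permutation p = 0.219) therefore drew on pairs 2 and 4, with -1.09 and -1.37. The control of pair 4 was not high on the other probes: it stood at 8.68 on probe 1 and 6.90 on probe 3, near the medians of the controls.

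On HIF1A probe 3 the IUGR samples ran from 6.19 to 7.11 with a median of 6.65, and the controls from 6.15 to 7.47 with a median of 6.87, a difference of -0.17 ± 0.36 (exact permutation p = 0.3125). The groups overlapped over nearly their whole range. The 3 probes gave the same sign in 6 of 6 pairs: all were lower in IUGR in pairs 1 to 5 and all were higher in pair 6, by 0.40, 0.51 and 0.53. Their pair differences correlated at 0.71 to 0.89 and their levels over the 12 arrays at 0.66 to 0.75, as a description of probes that read the same 12 RNA extracts. The mean of the 3 probes differed by -0.27 ± 0.44 (exact permutation p = 0.1875).

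The size of the HIF1A difference depended on single pairs. Without pair 6 the 3 probes differed by -0.35, -0.61 and -0.31, with unadjusted limma p of 0.0439, 0.0427 and 0.0329 and adjusted p of 0.945 each. Without pair 2 probe 1 differed by -0.12, without pair 4 probe 2 by -0.23, and without pair 1 probe 3 by -0.11. In pairs 1–2, 3–4 and 5–6 probe 1 differed by -0.58, -0.23 and 0.14, so the sign turned in the last set, which holds pair 6. The controls were more spread than the IUGR samples on each probe: their SD was 0.48 against 0.21, 0.65 against 0.17 and 0.44 against 0.30, a difference in spread that was not tested.

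ARNT, the partner of HIF1A in the active factor, was the only other gene measured among 23 listed HIF subunits and regulators. It lay at 5.65 ± 0.31 in IUGR and 5.59 ± 0.31 in control, a difference of 0.06 ± 0.32 with 3 of 6 pairs each way, and 3 of its 4 probes were higher in IUGR. The hydroxylases and VHL, which set the stability of the HIF1A protein, were not analysed here. The median of the 2 HIF genes was -0.08, against 0.01 over all named genes, and neither passed the test.

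**Figure D2:**
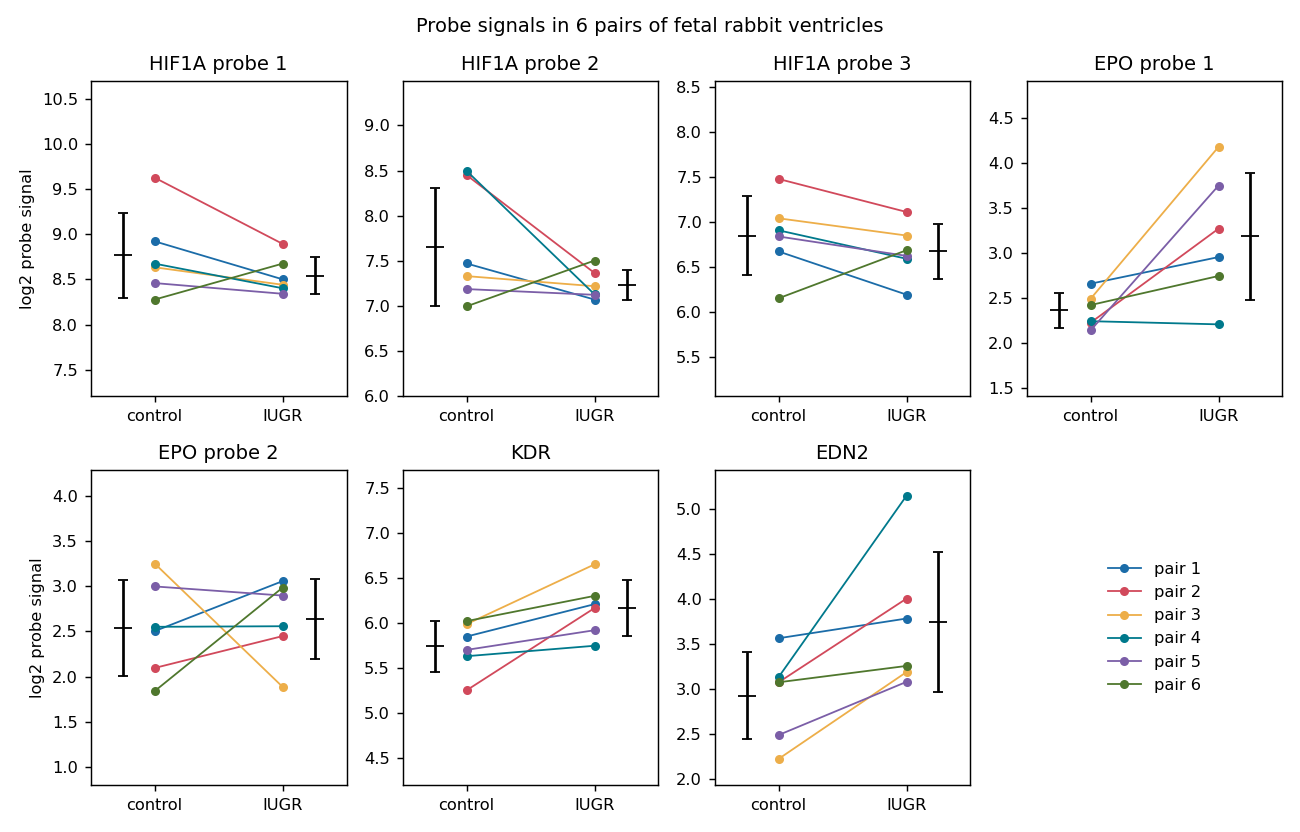
Log2 signal of each of the 7 probes in control and IUGR ventricles; each line joins the 2 samples of a pair, black marks give the group mean and SD (n = 6), and every panel spans 3.5 log2 units. The lines of KDR and EDN2 all run upward from control to IUGR, those of HIF1A run downward except in pair 6, and those of EPO probe 2 cross.

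EPO gave different answers by probe. On probe 1 the IUGR samples ran from 2.20 to 4.17 with a median of 3.11, and the controls from 2.14 to 2.66 with a median of 2.33. The controls were tightly grouped, 5 of the 6 IUGR samples lay above every control, and the sixth, that of pair 4, lay among the controls at 2.20. The difference was 0.82 ± 0.73, a 1.77-fold higher level in IUGR with a 95% interval of 1.14- to 2.73-fold (limma p = 0.0174, adjusted p = 0.982, exact permutation p = 0.0625, 5 of 6 pairs higher).

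The EPO probe 1 difference was carried unevenly. Pairs 3, 5 and 2 differed by 1.69, 1.61 and 1.04, pairs 6 and 1 by 0.32 and 0.30, and pair 4 by -0.04. Within pairs 1–2, 3–4 and 5–6 it was 0.67, 0.83 and 0.97, above 0 in each. Leaving out 1 pair gave 0.65 to 0.99, with an unadjusted limma p of 0.0493 without pair 3 and 0.0502 without pair 5. In geometric mean the signal was 9.06 linear units in IUGR against 5.13 in control, a gap of few units, and with 16 units added to every signal before the log the difference shrank from 0.82 to 0.28.

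On EPO probe 2 the IUGR samples ran from 1.89 to 3.06 with a median of 2.73, and the controls from 1.84 to 3.25 with a median of 2.53. The groups overlapped over nearly their whole range. The difference was 0.10 ± 0.85 (limma p = 0.754, adjusted p = 0.986, exact permutation p = 0.719), with 4 pairs higher and 2 lower. In pair 3, where probe 1 was highest in IUGR by 1.69, probe 2 was lower by 1.37 in the same sample (difference -1.37). The 2 probes shared a sign in 3 of 6 pairs, and their levels correlated at -0.16 over the 12 arrays and their pair differences at -0.66, where the HIF1A probes correlated at 0.66 and above. Both were matched to EPO by transcript accession, and which of them reads EPO mRNA was not tested. The mean of the 2 probes differed by 0.46 ± 0.33 (exact permutation p = 0.0625).

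Within each array EPO probe 1 ranked at percentile 5.23 to 20.3 of all probes in the controls and at 6.77 to 45.4 in IUGR. Probe 2 ranked at 0.823 to 34.6 in the controls and at 1.20 to 30.4 in IUGR. The control with the highest probe 2 value, that of pair 3, thus stood above all IUGR samples on that probe while its probe 1 value lay at percentile 14.5.

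**Figure D3:**
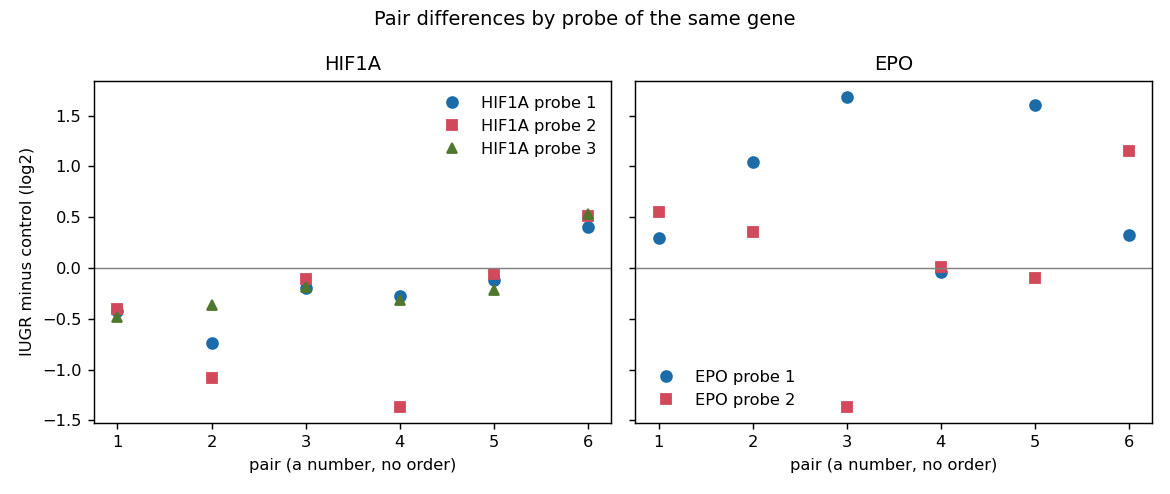
IUGR minus control (log2) in each of the 6 pairs for the 3 probes of HIF1A (left) and the 2 probes of EPO (right); pair numbers have no order. The HIF1A probes share a sign in every pair, and the EPO probes stand farthest apart in pair 3, at 1.69 and -1.37.

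EPO was set beside a list of genes of erythropoietin signalling and red cell production. Of 24 listed genes, 5 were measured, 4 higher and 1 lower in IUGR with a median of 0.25, and 0 passed the adjusted test (1 at an unadjusted p under 0.05, EPO itself). Among the genes other than EPO, 3 were higher and 1 lower, with a median of 0.13. TF, the iron carrier transferrin, counted as higher at 0.00. KITLG, the stem cell factor that red cell precursors need, lay at 4.57 ± 0.80 in IUGR and 3.78 ± 0.43 in control, a difference of 0.79 ± 1.03 that was 0.41 without pair 5. BCL2L1, an inhibitor of cell death, differed by 0.25 ± 1.14 with 3 of 6 pairs each way. The receptor EPOR was not analysed here.

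Markers of red blood cells had higher mean levels in IUGR, and none passed the adjusted test (1, HBA, at an unadjusted p under 0.05). This held for all 3 of the measured ones, of 18 listed: HBA, the alpha chain of haemoglobin, by 0.41 ± 0.31, HBB2, a beta chain, by 0.12 ± 0.29 and BPGM, which makes the red cell's modulator of oxygen release, by 0.14 ± 0.26. Their mean level ran from 13.87 to 14.50 in IUGR and from 13.62 to 14.19 in control, and it was higher in IUGR in 6 of 6 pairs, by 0.22 ± 0.12. In pairs 1 to 6 EPO probe 1 differed by 0.30, 1.04, 1.69, -0.04, 1.61 and 0.32. The mean of the red cell markers differed by 0.03, 0.27, 0.29, 0.31, 0.31 and 0.13 in these pairs. The part of blood RNA in the EPO difference was not tested. Of 11 liver markers, 6 were measured and 5 were lower in IUGR (median -0.35), with a mean level of 3.95 to 5.65 in IUGR against 4.49 to 7.14 in control, and 1 of 6 pairs higher. In pairs 1 to 6 the mean of the liver markers differed by -0.56, -1.63, 1.10, -0.35, -0.29 and -1.49. Their part in the EPO difference was not tested.

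KDR was higher in IUGR in every pair. The IUGR samples ran from 5.75 to 6.65 with a median of 6.19, and the controls from 5.25 to 6.02 with a median of 5.78. Of the 6 IUGR samples, 4 lay above every control, and the IUGR samples of pairs 4 and 5, at 5.75 and 5.92, lay within the control range. The difference was 0.43 ± 0.30, 1.34-fold with a 95% interval of 1.07- to 1.68-fold (limma p = 0.0169, adjusted p = 0.982, exact permutation p = 0.03125). That exact p is the smallest that 6 pairs can give.

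The KDR difference was 0.91 in pair 2, 0.66 in pair 3, 0.36 in pair 1, 0.28 in pair 6, 0.22 in pair 5 and 0.12 in pair 4. It was 0.64, 0.39 and 0.25 in pairs 1–2, 3–4 and 5–6. Leaving out 1 pair gave 0.33 to 0.49, with an unadjusted p of at most 0.0475. KDR lay above the median of the table, where 3.91% of probes differed by at least as much in size, and with 16 units added to every signal it differed by 0.34.

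The endothelial markers did not share one direction with KDR. Of 20 listed, 5 were measured, 3 higher and 2 lower in IUGR, with a median of 0.03. VCAM1, an adhesion molecule, lay at 12.53 ± 0.17 in IUGR and 12.68 ± 0.36 in control (-0.15 ± 0.21), and THBD, the thrombin receptor of the vessel lining, at 9.33 ± 0.45 and 9.30 ± 0.71 (0.03 ± 0.50). VWF, SELP and SELE, which endothelial cells make or display, lay below the median probe and differed by 0.12 ± 1.13, -0.28 ± 0.67 and 0.17 ± 2.93. The mean level of the 5 ran from 5.81 to 6.67 in IUGR and from 5.77 to 7.54 in control, and it was higher in IUGR in 4 of 6 pairs. In pairs 1 to 6 it differed by -0.16, -0.87, 0.03, 0.03, 0.63 and 0.21. In pair 2, where KDR differed most, SELE differed by -5.02 and VWF by 1.18. Without pair 2 SELE differed by 1.21 and VWF by -0.09. The difference between KDR and these markers was not tested. TAGLN and MYH11, both of smooth muscle, differed by 0.50 ± 0.43 and -0.55 ± 0.92. TAGLN lay at a mean level of 8.97 and was higher in IUGR in 5 of 6 pairs (exact permutation p = 0.0625). MYH11 was dim, at a mean level of 2.92, and was lower in 5 of 6 pairs (exact permutation p = 0.219). Neither passed the adjusted test, and 1, TAGLN, had an unadjusted p under 0.05. Of the 7 listed smooth muscle markers, 5 were not analysed here.

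Of 42 listed genes of VEGF and angiopoietin signalling, 3 were measured, 2 higher and 1 lower, with a median of 0.41. None passed the adjusted test, and 1, KDR, had an unadjusted p under 0.05. The median was 0.14 without pair 6, 0.07 with only the brighter probes, 0.17 with 16 units added to every signal and 0.28 with each gene's probes averaged. Among the genes other than KDR, 1 was higher and 1 lower, with a median of 0.06. PRKCA and PRKCB, protein kinases C that act below the receptor, differed by 0.41 ± 0.81 and -0.29 ± 1.51 in their brightest probes. Of the 6 PRKCB probes 4 were higher and 2 lower in IUGR, from -0.29 to 1.11 with a mean of 0.22. PRKCA was dim, at a mean level of 3.35, with 2 of 2 probes higher. Without pair 6 PRKCA differed by 0.14. Without pair 5, in whose IUGR sample PRKCB stood far below the others, PRKCB differed by 0.29. The ligands VEGFA, VEGFB and PGF and the receptor FLT1 were not analysed here.

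EDN2 was also higher in IUGR in every pair, at a low level. The IUGR samples ran from 3.08 to 5.14 with a median of 3.52, and the controls from 2.22 to 3.56 with a median of 3.07. The IUGR sample of pair 4 stood highest at 5.14, the next at 4.00, and 3 of the 6 IUGR samples lay above every control. The difference was 0.82 ± 0.68, 1.76-fold with a 95% interval of 1.17- to 2.64-fold (limma p = 0.0129, adjusted p = 0.982, exact permutation p = 0.03125).

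The EDN2 difference was 2.01 in pair 4, 0.96 in pair 3, 0.93 in pair 2, 0.59 in pair 5, 0.22 in pair 1 and 0.18 in pair 6. Without pair 4 it was 0.58 with an unadjusted limma p of 0.0150, and over all pairs left out in turn it ran from 0.58 to 0.94. In pairs 1–2, 3–4 and 5–6 it was 0.57, 1.49 and 0.39. In geometric mean the signal was 13.4 linear units in IUGR against 7.59 in control, and with 16 units added to every signal the difference shrank from 0.82 to 0.34. Within each array EDN2 ranked at percentile 31.0 to 52.5 in IUGR and 7.31 to 39.2 in control. Among probes below the median level, 4.26% differed by at least as much in size.

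By their brightest probes, the other measured genes of the endothelin system lay at or below no difference. Of 10 listed genes, 5 were measured, and the 4 besides EDN2 had a mean difference at or below 0 with a median of -0.10, with 0 past the adjusted test and none but EDN2 at an unadjusted p under 0.05. EDN1, the endothelin made by endothelial cells, lay at 9.36 ± 0.23 in IUGR and 9.47 ± 0.14 in control, a difference of -0.11 ± 0.28. The receptor EDNRA, through which smooth muscle contracts, lay at 8.27 ± 0.31 and 8.27 ± 0.26 with 3 of 6 pairs each way, and 2 of its 3 probes were higher in IUGR, with a mean over the 3 of 0.15. EDNRB, the receptor that also clears endothelin, differed by -0.09 ± 0.18 with 4 of 4 probes lower. MME, a peptidase that can break down endothelins, differed by -0.27 ± 0.74.

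**Figure D4:**
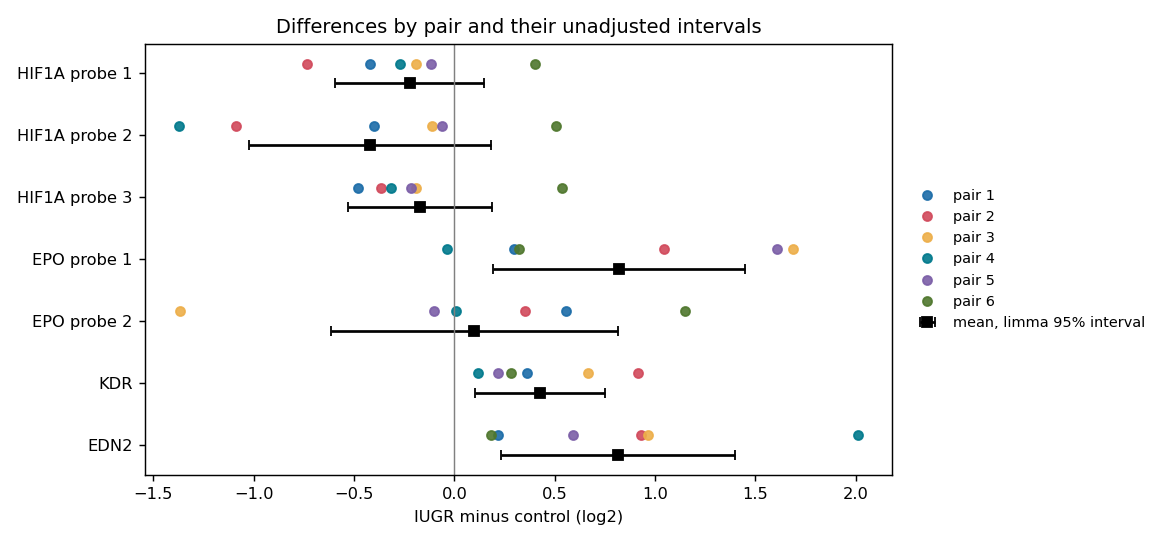
IUGR minus control (log2) for each of the 7 probes; coloured points are the 6 pairs, and the black square and bar give the mean and the unadjusted 95% interval from the limma fit. The intervals of EPO probe 1, KDR and EDN2 lie above 0, and those of the 3 HIF1A probes and of EPO probe 2 include it.

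Across pairs the members were set side by side. All 3 HIF1A probes were lower while EPO probe 1, KDR and EDN2 were higher in 4 of 6 pairs. Pair 4 departed by EPO probe 1 and pair 6 by HIF1A. EPO probe 2 was left out of this count, and in pairs 3 and 5 it differed by -1.37 and -0.10. How often other genes give such a pattern was not counted, so nothing is read from it. EPO probe 1 and KDR correlated at 0.73 over the 12 arrays and at 0.47 over the 6 pair differences, and EDN2 correlated with them at 0.02 and 0.05 over the arrays. Between HIF1A probe 1 and the brightest probes of EPO, KDR and EDN2 the correlations over the arrays were -0.26, -0.52 and -0.05. These are descriptions over 12 arrays that share their pairs and groups. The pair with the greatest difference was another for each gene: pair 3 for EPO probe 1, pair 2 for KDR and pair 4 for EDN2.

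Genes known as HIF targets were looked at as a group. Of 50 listed, 12 were measured, 7 higher and 5 lower in IUGR with a median of 0.01, against 305 higher and 286 lower with a median of 0.01 over the 591 named genes. None passed the adjusted test, and 2, EPO and KDR, had an unadjusted p under 0.05; without these members 5 were higher and 5 lower. LDHA, which makes lactate from pyruvate, lay at 12.96 ± 0.37 in IUGR and 12.56 ± 0.24 in control, a difference of 0.40 ± 0.51 in which 5 of 5 probes were higher. SLC2A1, the glucose transporter of most fetal cells, differed by 0.02 ± 0.33, and TF, the iron carrier transferrin, by 0.00 ± 0.50.

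Of 65 listed genes of vascular tone, 19 were measured, 6 higher and 13 lower with a median of -0.10. That median was -0.06 without pair 1, -0.04 without pair 4 and -0.01 with only the brighter probes. None passed the adjusted test, and 1 had an unadjusted p under 0.05. That was PTGER3, a prostaglandin E receptor, at 3.85 ± 1.06 in IUGR and 4.60 ± 0.65 in control, a difference of -0.75 ± 0.64 with 6 of 6 probes lower (limma p = 0.0158, adjusted p = 0.982, exact permutation p = 0.0625, n = 6 pairs). KCNMB1, a subunit of the potassium channel that relaxes smooth muscle, differed by 0.21 ± 0.27 with 6 of 6 pairs higher. NOS2, the inducible nitric oxide synthase and also a HIF target, differed by -0.34 ± 0.55 with probes from -0.79 to 0.55.

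**Figure D5:**
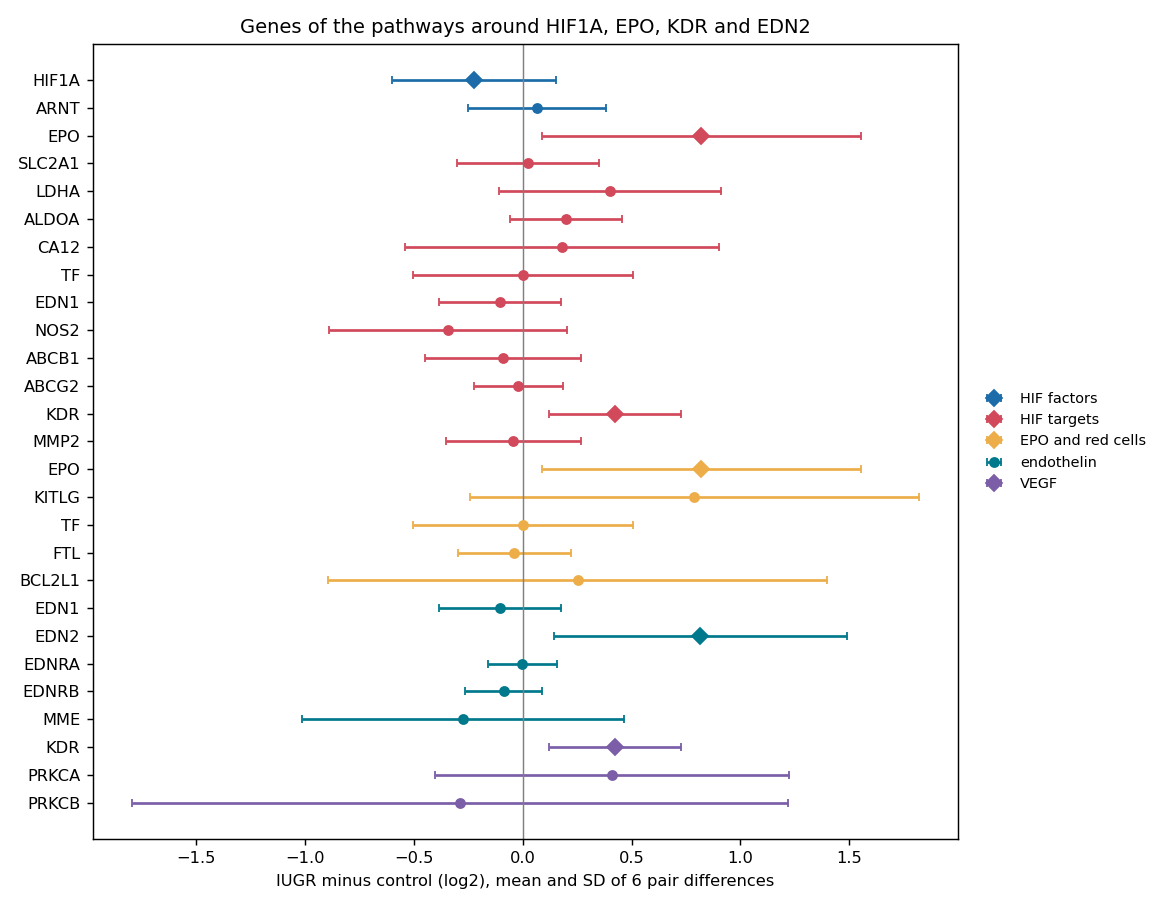
IUGR minus control (log2) for the brightest probe of each measured gene in 5 pathway lists, as mean and SD of 6 pair differences; diamonds mark HIF1A, EPO, KDR and EDN2, and a gene in 2 lists has a point in each. EDN2 stands at 0.82 among endothelin genes that lie at or below 0, and the HIF targets other than EPO and KDR lie on both sides of 0.

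The genes most like each member were found by the Pearson correlation of levels over the 12 arrays with each pair's mean removed, among the brightest probes of the 590 other named genes. These 12 values rest on 6 pair differences, so high values arise easily: the highest per member lay between 0.91 and 0.97. The group difference was left in, so a gene that differs in a member's direction scores higher for that alone. All the genes named below differed in the direction of their member. For KDR the genes most alike were TRDN, triadin of the calcium release complex (0.95), SGCA, a sarcoglycan of the muscle membrane (0.94), and VLDLR, a lipoprotein receptor (0.93). For EPO probe 1 they were ENPP1, which makes pyrophosphate (0.97), TRDN (0.89) and ARRB1, an arrestin that ends receptor signalling (0.89). For HIF1A probe 1 they were CD63, a lysosomal membrane protein (0.91), ADORA3, an adenosine receptor (0.90), and CD86, a costimulatory protein of immune cells (0.83). For EDN2 they were KCNA1, a potassium channel (0.94), FMO4, a flavin monooxygenase (0.85), and AKR1D1, a steroid reductase (0.80). With the pair means left in, ENPP1 still correlated with EPO probe 1 at 0.91, while TRDN correlated with KDR at 0.33 and FMO4 with EDN2 at -0.28.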

How the data were processed

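The labels' protocols describe total RNA of frozen fetal ventricles, labelled with Cy3 and hybridised to a one-colour Agilent rabbit array. The deposited values are log2 probe signals that the authors made with RMA (named without a version in the submitters' processing notes); base 2 was taken from the values, whose highest is 15.83. At any rank the arrays' sorted values lay within 0.13 of each other, so a shift common to most transcripts is not visible. Each array held 4396 to 5040 distinct values, so dim probes often share a value. The sources used here do not give the scanner, background method or probe filters.

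Probes were named through transcript accessions, symbols and synonyms (1673 probes, 591 genes); 41930 are unnamed. Values were used unchanged, and a gene is its brightest probe unless probes are named. Limma 3.58.1 (R 4.3.3, lmFit and eBayes, two-sided, pair as a fixed block) was fitted to all 43603 probes, with Benjamini-Hochberg adjustment over all of them, and was tested on simulated data. The pairing comes from the labels; deviations from group means correlated within pairs at 0.129 to 0.254. Exact permutation tests used the 64 sign changes. Named genes were the members, the 3 genes of smallest p per pathway list, the 3 most alike per member, and, chosen after their values were seen, further measured genes of the pathway and marker lists. The members and lists were chosen with earlier results of these data known. Lists were counted and not tested. No sequences or coordinates are printed. Leukocyte markers (3 of 10 measured, median 0.10) and cardiomyocyte markers (4 of 15, median 0.10) completed the lists.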

Additional observations from a re-analysis of the deposited data

Results flagged for a closer look

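Dixon's test was used to look for single samples that stood apart within a group, over the members and the genes named by rule. None of the 14 groups of member probes had such a sample. Of all 58 groups screened, 4 had one, where chance gives about 1 in 20 (2.9), and the other genes were picked by their values, so that rate need not hold for them. The CD86 signal was 6.92 in control replicate 2, against 2.25 to 3.56 in the other controls; this is also the control with the highest HIF1A on probe 1, and without its pair CD86 differed by -0.16 instead of -0.81. In IUGR replicate 5 the KITLG signal was 6.08, against 3.94 to 4.68 in the other IUGR samples, and its difference was 0.41 without that pair. The PRKCB signal of the same sample was 3.36, against 6.57 to 8.30, and its difference turned from -0.29 to 0.29 without that pair. The SGCA signal of control replicate 5 was 10.20, against 10.46 to 10.54 in the other controls.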

How the results depend on the processing

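The alternatives were the fit without the replicate block, each pair left out, an intensity trend with robust prior, only probes above the median level, 2 other normalizations, the ordinary paired test, a damped log scale and gene means. Under all of them no probe passed the adjusted threshold (lowest adjusted p = 0.897). KDR, EDN2, EPO probe 1 and the 3 HIF1A probes kept their sign in every one that was run on them. Without the replicate block their differences were the same and the unadjusted p was 0.0322 for KDR, 0.0367 for EDN2 and 0.0132 for EPO probe 1. A difference cannot change without the block, with the trend and robust prior, in the ordinary paired test or with only the brighter probes. Its sign under those settings was thus fixed in advance. KDR and EDN2 were higher in 6 of 6 pairs and have 1 probe each. For these 2 genes the sign was also fixed with a pair left out, on the damped log scale and with gene means. EPO probe 2 turned to -0.11 without pair 6 and ran from -0.11 to 0.39 over the pairs left out. The 1562 probes at an unadjusted p under 0.05 became 857 without the replicate block and 624 with only the brighter probes, where fewer were tested; the cause of the first shift was not tested. EDN2 and EPO could not be fitted among the brighter probes, since they lie below the median level. The medians of 3 lists were not stable in sign: HIF factors ran from -0.19 without pair 6 to 0.01 without pair 2, HIF targets from -0.03 without pair 5 to 0.10 without pair 6, and the erythropoietin list from -0.02 with only the brighter probes to 0.54 without pair 6.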

Other observations

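ADORA3 and CD86, both below the median level, were among the genes most like HIF1A and differed by -0.54 ± 1.33 and -0.81 ± 1.66, with 1 of 6 pairs higher in IUGR for each. Pair 2 differed by -2.73 and -4.07, and without it they differed by -0.10 and -0.16. ENPP1 differed by 0.24 ± 0.18 in its brighter probe, the one most like EPO probe 1, and by -0.52 in its other probe. TRDN differed by 0.50 ± 0.38 in its brightest probe, the one compared with KDR and EPO probe 1. Of its 5 probes 3 were higher and 2 lower in IUGR, with a mean of 0.19.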
